A study of Drosophila melanogaster with 8 samples.

Results

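The genes described here encode the Polycomb group, the trithorax group and the ATP-dependent chromatin remodelers of Drosophila, together with the heterochromatin protein HP1 and enzymes that methylate or demethylate histones. A list of 43 such genes was read on 8 Affymetrix expression arrays. A gene entered when at least 1 probe set carried its symbol and no other in the array annotation, which gave 34 of the 43 genes, measured by 37 of 18769 probe sets. These 34 stand among 11982 genes measured in all. The probe sets of Kdm4B, 3 in number, also carry other symbols, and pho, ash1, Set1, Bap111, Acf, Su(var)3-9, egg and G9a were not analysed here.

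RNA came from GFP-positive cells that FACS had separated from pooled brains of both sexes. All flies carried UAS-mCD8-GFP with the OK-107 GAL4 driver, and dTip60E431Q flies carried in addition a UAS transgene for a Tip60 protein defective in histone acetyltransferase (HAT) activity, which acts in a dominant negative manner. The control flies were w1118, which is also the genetic background of the transgenic lines. Newly emerged flies were kept for 5 days either alone in a vial (isolation, ISO) or in a group of 30 flies with equal numbers of each sex (environmental enrichment, EE). This gave 4 groups of 2 arrays: control ISO, control EE, dTip60E431Q ISO and dTip60E431Q EE. The labels give an age of 5 days for 7 of the arrays and of 6 days for dTip60E431Q ISO replicate 2. The driver also acts outside the mushroom body (MB), for example in the pars intercerebralis, the suboesophageal ganglion and the optic lobes, and the cells obtained need not all be Kenyon neurons, which build the MB. Whether both arrays of a group derive from different pools is not stated in the sources used here, and a p-value thus reflects spread that may be purely technical. The dTip60E431Q ISO arrays were closer to each other than those of the other groups. The SD of the difference between replicates over all probe sets was 0.183 there. It was 0.479 in control ISO, 0.358 in control EE and 0.372 in dTip60E431Q EE. The spread shared by the tests includes this close pair, and an alternative with the pair averaged is given below.

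Polycomb group proteins keep genes silent and trithorax group proteins keep them active, and both were found in Drosophila through mutants that change the identity of body segments. Polycomb repressive complex PRC2 methylates histone H3 on lysine 27 (H3K27), PRC1 binds that mark and ubiquitylates histone H2A, and the trithorax group counters them by methylating H3K4 or by moving nucleosomes. Remodelers such as Brahma, Iswi, Mi-2 and Ino80 use ATP to slide, evict or exchange nucleosomes. In neurons these machineries are known for setting cell identity, dendrite shape and programmes of gene expression linked to activity. Tip60 itself is a HAT that works within a remodeling complex, so whether its loss of function moves the mRNAs of other chromatin regulators is a question that these arrays can address.

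The targeted gene was read first. Tip60 signal on the log2 scale was 8.41 and 8.07 in control ISO, 8.18 and 8.09 in control EE, 9.64 and 9.64 in dTip60E431Q ISO, and 9.88 and 10.14 in dTip60E431Q EE. All 4 dTip60E431Q arrays thus lay above all 4 control arrays, and the array does not separate transgene from endogenous mRNA. Of 14 measured markers of Kenyon neurons, 12 had a mean signal at or above the median of all probe sets. Among them, toy lay between 10.50 and 11.03, dac between 9.78 and 10.11, and ey between 7.35 and 8.06. Low signals were those of mbm, between 5.853 and 6.481, and of tap, between 2.06 and 2.705. Other cell types left signal too. The summed signal of 11 measured fat body markers (log2 of the sum) was 14.25 to 14.64 in control ISO and dTip60E431Q EE but 15.37 to 15.47 in control EE and dTip60E431Q ISO. That of 8 midgut markers reached 13.19 and 13.28 in dTip60E431Q ISO against 7.62 to 10.58 elsewhere. The pan-neuronal sum (9 genes) varied only between 14.39 and 14.63 and the glial sum (9 genes) between 14.49 and 14.72. In such bulk samples, fewer cells of a type and less RNA per cell cannot be told apart.

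No chromatin gene passed the test in any comparison. A call required a limma p-value below 0.05 after Benjamini-Hochberg adjustment over all 18769 probe sets and a fold of at least 1.3. For EE against ISO, 0 of 34 genes were called in control flies, where 0.0906% of all probe sets were called, and 0 of 34 in dTip60E431Q flies, where the share was 0.448%. For dTip60E431Q against control, 0 of 34 were called under ISO (0.799% of all probe sets) and 0 of 34 under EE (0.181%). The interaction, which asks whether the housing difference itself differs between genotypes, gave 0 of 34 (0.671%). With 4 arrays against 4, genotype over both housings gave 0 of 34 (0.538%) and housing over both genotypes 0 of 34 (0.218%). Against shares this low, a count of 0 of 34 is near the background and is not a result particular to chromatin genes.

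Looser thresholds were also applied with limma. At an unadjusted p below 0.05 with a fold of at least 1.3, the count was 0 of 34 in each of the 7 comparisons, where 4.41% of all probe sets passed for housing in control, 6.15% for housing in dTip60E431Q, 10.1% for genotype under ISO, 5.09% for genotype under EE, 10.2% for the interaction, 4.32% for genotype over both housings and 1.4% for housing over both genotypes. With no requirement on the fold, brm passed under ISO, and brm, Kdm4A and Caf1-p55 passed over both housings, all lower in dTip60E431Q. These are 1 and 3 of 34 genes, beside 5.98% and 4.13% of all probe sets that passed in that direction. Taking both directions, 13% of all probe sets passed under ISO and 9.7% over both housings. In the other 5 comparisons 0 of 34 genes passed, beside 5.84% of all probe sets for housing in control, 8.22% for housing in dTip60E431Q, 7.28% for genotype under EE, 10.4% for the interaction and 3.76% for housing over both genotypes. The per-gene test named in the study's methods also called 0 of 34 after adjustment in every comparison, beside 0 to 0.0852% of all probe sets. At an unadjusted p below 0.05 it passed between 1 and 3 of 34, beside 2.5 to 9.09% of all probe sets.

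**Figure D1:**
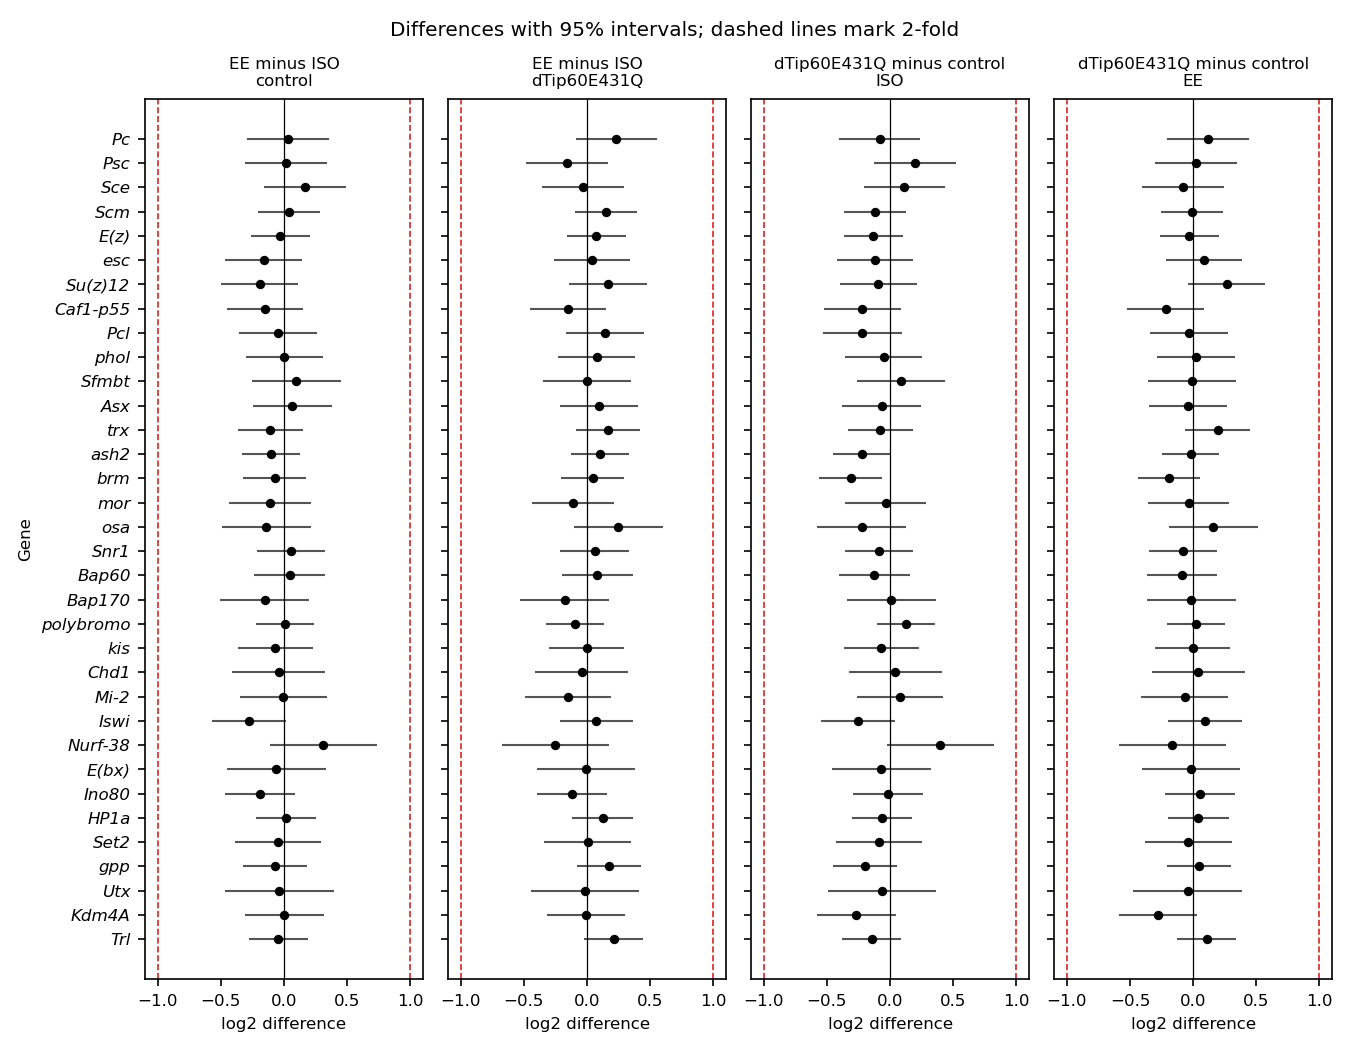
Log2 difference of each of the 34 chromatin genes (points) with its 95% interval from limma (lines), for EE minus ISO in each genotype and for dTip60E431Q minus control in each housing. Dashed lines mark a 2-fold difference, which no interval reaches, the furthest bound being that of Nurf-38 between genotypes under ISO at 1.77-fold.

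The 95% intervals bounded the signal differences only relative to the spread between arrays of a group. That spread may be purely technical, so the bounds need not hold for other pools of flies or for Kenyon neurons alone. Each interval was set gene by gene, with no allowance for the number of genes and comparisons read. In the 4 comparisons of groups of 2 arrays, the 95% interval of the difference stayed inside 2-fold for 34 of 34 genes, as it did for 87.7 to 91.3% of all probe sets. Inside 1.5-fold lay 33 genes for housing in control, 32 for housing in dTip60E431Q, 33 for genotype under ISO and 32 for genotype under EE, beside 62.6 to 67% of all probe sets. With 4 arrays against 4, all 34 intervals stayed inside 1.5-fold, for genotype (84.8% of all probe sets) and for housing (88.5%). The interaction was less precise: 33 of 34 stayed inside 2-fold, the exception being Nurf-38 with a bound of 2.24-fold, and 18 of 34 inside 1.5-fold, beside 76.1% and 32.3% of all probe sets. The plot of differences with their intervals shows how closely the genes cluster around 0.

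Median differences were small as well. Over the 34 genes the median log2 difference between EE and ISO was −0.04 in control and 0.04 in dTip60E431Q, beside −0.02 and 0.01 over all probe sets. Between dTip60E431Q and control it was −0.08 under ISO and −0.01 under EE, beside −0.00387 and 0.03 over all probe sets. Under ISO, 26 of 34 genes had a value below 0, and under EE 20 of 34. Single arrays moved these medians: the one for genotype under ISO was −0.00881 without control ISO replicate 1 and −0.17 without control ISO replicate 2. The one for housing in control was −0.12 when control ISO replicate 2 was left out and turned to 0.05 when replicate 1 was, and the one for genotype under EE turned from −0.01 to 0.08 without dTip60E431Q EE replicate 2. For the interaction the median was 0.06 (0.03 over all probe sets).

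**Figure D2:**
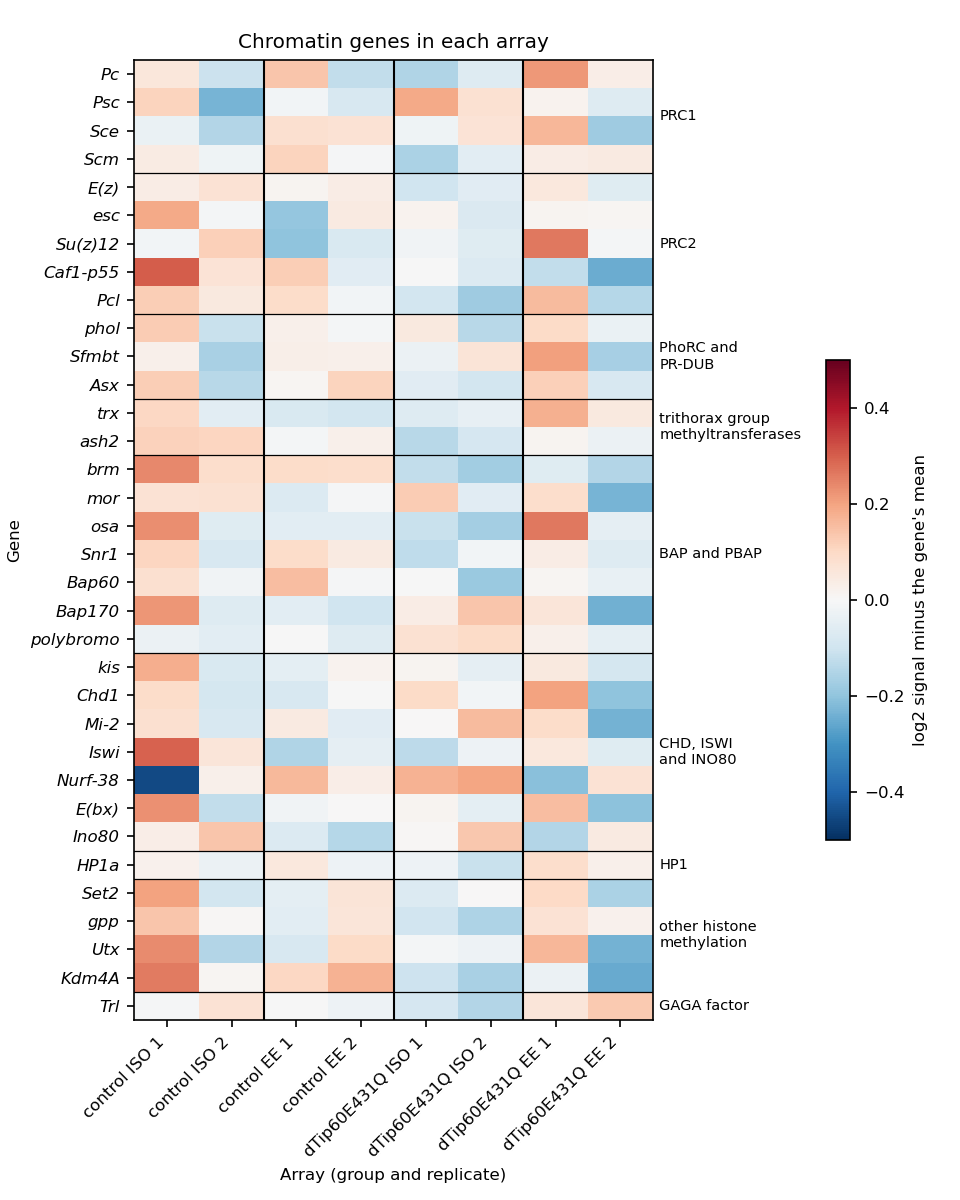
Signal of the 34 chromatin genes (rows, grouped by complex) in each of the 8 arrays (columns), as log2 signal minus that gene's mean over the arrays, red above and blue below. brm and Kdm4A are blue in all 4 dTip60E431Q arrays, and many rows are red in control ISO replicate 1 and dTip60E431Q EE replicate 1.

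The gene with the smallest p was brm, which encodes Brahma, the ATPase motor of the SWI/SNF-type BAP and PBAP complexes and a founding trithorax group member. Its log2 signal was 9.45 and 9.30 in control ISO, 9.30 and 9.30 in control EE, 9.09 and 9.04 in dTip60E431Q ISO, and 9.15 and 9.07 in dTip60E431Q EE. Every dTip60E431Q array lay below every control array in either housing. The mean over 4 arrays was 9.34 ± 0.076 (SD, n = 4) in control and 9.09 ± 0.048 (SD, n = 4) in dTip60E431Q. The log2 difference over both housings was −0.25 (SE 0.074, 95% interval −0.43 to −0.08; unadjusted p = 0.0119, adjusted p = 0.338 by limma), that is 1.19-fold lower. Under ISO it was −0.31 (SE 0.10, adjusted p = 0.275) and under EE −0.19 (SE 0.10, adjusted p = 0.785). With each of the 8 arrays left out in turn the difference over both housings stayed between −0.29 and −0.21.

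Kdm4A, a demethylase that removes methyl groups from H3K9 and H3K36, was the other gene whose genotypes did not overlap. Its signal was 8.67 and 8.43 in control ISO, 8.52 and 8.59 in control EE, 8.31 and 8.25 in dTip60E431Q ISO, and 8.39 and 8.16 in dTip60E431Q EE. The lowest control array (8.43) and the highest dTip60E431Q array (8.39) were close, and the mean over 4 arrays was 8.55 in control and 8.28 in dTip60E431Q. The difference over both housings was −0.27 (SE 0.093, 95% interval −0.49 to −0.05; unadjusted p = 0.0218, adjusted p = 0.404 by limma). It was nearly the same under ISO (−0.27, adjusted p = 0.459) and EE (−0.28, adjusted p = 0.726). Genotypes that did not overlap were found for 2 of 34 genes (5.88%), both lower in dTip60E431Q, where 5.31% of all probe sets did not overlap in either direction and 2.2% were lower in dTip60E431Q. By housing, 0 of 34 genes had groups that did not overlap, beside 1.49% of all probe sets.

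Caf1-p55 (the annotation's symbol leaves out the p), a histone-binding WD40 protein shared by PRC2, the chromatin assembly factor CAF-1 and the remodeler NURF, came next. Its signal was 8.77 and 8.54 in control ISO, 8.60 and 8.42 in control EE, 8.47 and 8.40 in dTip60E431Q ISO, and 8.35 and 8.23 in dTip60E431Q EE. Control EE replicate 2 lay below dTip60E431Q ISO replicate 1, so the genotypes overlapped. The genotype difference was −0.22 over both housings (SE 0.090, 95% interval −0.43 to −0.01; unadjusted p = 0.0458, adjusted p = 0.498 by limma), and the housing difference over both genotypes was −0.15 (SE 0.090, adjusted p = 1.00). Caf1-p55 was the only gene of the 34 with a value below −0.1 in each of the 4 comparisons of groups of 2 arrays.

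Other signals moved with genotype in the same arrays. The summed signal of 13 measured germ line and dividing cell markers was 8.68 to 8.96 in the control arrays and 9.39 to 9.48 in the dTip60E431Q arrays. Mis12, a kinetochore protein, and tut, a germ line translational regulator, carried this shift and were called higher in dTip60E431Q over both housings (adjusted p = 0.000683 and 0.00155 by limma). Mis12 had a log2 difference of 1.59, and tut lay between 6.32 and 6.57 in control and between 7.51 and 7.90 in dTip60E431Q. The other markers of this list differed in direction. aub was also higher over both housings (0.67, unadjusted p = 0.000931, adjusted p = 0.095 by limma). Under EE, osk and CycB were lower (−1.26 and −1.48, adjusted p = 0.514 and 0.398). vas, which defines germ cells, stayed between 3.23 and 3.58 in all arrays. Over both housings 9 of the 13 had values above 0. The sum over 14 measured Kenyon neuron markers was 13.74 to 14 in control and 13.65 to 13.91 in dTip60E431Q, and 12 of the 14 had a value below 0 in dTip60E431Q over both housings. At an unadjusted p below 0.05 by limma, 3 of the 14 passed as lower: prt (−0.46), mbm (−0.32) and sNPF (−0.25). The share over all probe sets was 4.13%, and 0 of the 14 were called. Under ISO, 0 of the 14 had a value above 0 (median −0.16), and under EE 4 did (median −0.08). Of the photoreceptor markers, 5 of 5 measured had values above 0 in dTip60E431Q (median log2 difference 0.99 under ISO, 0.42 under EE and 0.70 over both housings), and 0 were called by limma over both housings, with 1 at an unadjusted p below 0.05. Their part in the values of brm, Kdm4A and Caf1-p55 was not tested.

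**Figure D3:**
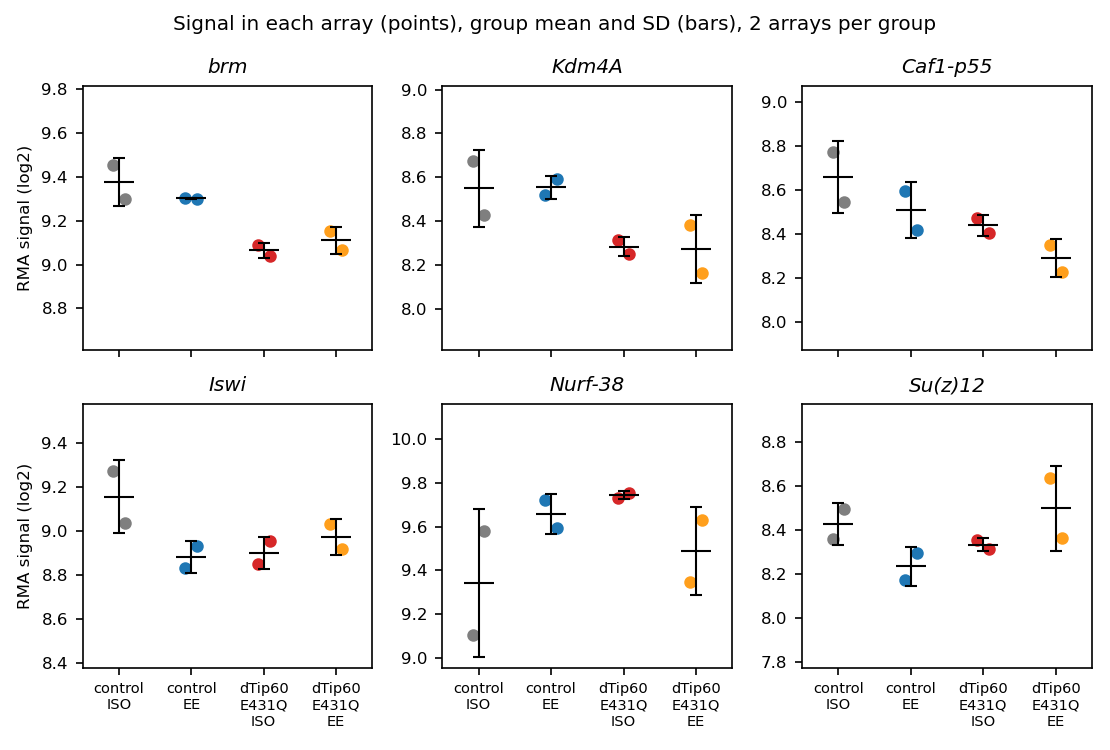
Log2 signal of 6 chromatin genes in each array (points), with the mean and SD of each group of 2 arrays (bars); all panels span the same log2 range. brm and Kdm4A separate the genotypes without overlap, Caf1-p55 nearly so, and Nurf-38 has its lowest values in control ISO replicate 1 (9.11) and dTip60E431Q EE replicate 1 (9.35).

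Under ISO the largest difference between genotypes was that of Nurf-38, an inorganic pyrophosphatase that is also a subunit of the NURF remodeler. Its signal was 9.11 and 9.58 in control ISO, 9.72 and 9.59 in control EE, 9.73 and 9.75 in dTip60E431Q ISO, and 9.35 and 9.63 in dTip60E431Q EE. The low array in control ISO and the low array in dTip60E431Q EE set both group means, while the second array of each group lay near the other groups. Its log2 difference was 0.40 for genotype under ISO (SE 0.18, adjusted p = 0.41 by limma), 0.31 for housing in control (adjusted p = 0.876) and −0.25 for housing in dTip60E431Q. The ISO difference was 0.16 without control ISO replicate 1 and 0.64 without replicate 2. The interaction was −0.56 (SE 0.25, 95% interval −1.16 to 0.04, adjusted p = 0.504). The fat body sum was higher in the same pair of groups, control EE and dTip60E431Q ISO, and its part in the Nurf-38 values was not tested.

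Iswi, the ATPase shared by NURF, ACF and CHRAC, had the opposite order. Its signal was 9.27 and 9.04 in control ISO, against 8.83 and 8.93 in control EE, 8.85 and 8.95 in dTip60E431Q ISO, and 9.03 and 8.92 in dTip60E431Q EE. Both control ISO arrays lay above the other 6, though by little for replicate 2 (9.038, against 9.032 in dTip60E431Q EE replicate 1). Naming Iswi by a small p favours such a separation, and its share over all probe sets was not counted. The difference was −0.27 for housing in control (SE 0.12, adjusted p = 0.839 by limma) and −0.26 for genotype under ISO (SE 0.12, adjusted p = 0.45). Both differences rest on the same control ISO arrays, and the latter lay between −0.37 and −0.14 when either was left out. The interaction was 0.35 (SE 0.17, adjusted p = 0.555).

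Among the remaining differences under ISO, ash2, a subunit common to the H3K4 methyltransferase complexes, was at 8.48 and 8.47 in control and at 8.22 and 8.28 in dTip60E431Q. The log2 difference of −0.22 (SE 0.095, adjusted p = 0.387 by limma) exceeded the gap between replicates in both groups, which the choice of ash2 by a small p favours. Under EE its values were 8.35 and 8.39 in control and 8.37 and 8.33 in dTip60E431Q, which overlapped. gpp, the grappa methyltransferase of H3K79, has 4 probe sets. The brightest gave −0.20 under ISO (SE 0.11, adjusted p = 0.499), while the other probe sets gave −0.00113, −0.02 and −0.24, and in EE against ISO of dTip60E431Q flies the 4 probe sets differed in sign.

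Under EE, the values of Su(z)12, a core PRC2 subunit, were 8.17 and 8.30 in control and 8.63 and 8.36 in dTip60E431Q. The difference was 0.26 (SE 0.13, adjusted p = 0.747 by limma), and it ran from 0.13 without dTip60E431Q EE replicate 1 (adjusted p = 0.989) to 0.40 without replicate 2 of that group (unadjusted p = 0.0254, adjusted p = 0.495). trx, the founding H3K4 methyltransferase of its group, stood at 9.23 and 9.21 in control EE and at 9.48 and 9.35 in dTip60E431Q EE, a difference of 0.20 (SE 0.11, adjusted p = 0.786). Trl, the GAGA factor that recruits chromatin complexes to promoters, stood at 8.21 and 8.19 against 8.27 and 8.35, a difference of 0.11 (adjusted p = 0.883). In each of these 3 genes both dTip60E431Q EE arrays lay above both control EE arrays, and none passed the test. Naming genes by a small p favours such a separation, and its share over all probe sets was not counted.

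The housing comparison asks which genes respond to enrichment and whether Tip60 HAT activity is needed. Within dTip60E431Q flies the smallest p among the 34 genes was that of Trl, at 8.13 and 8.07 under ISO and 8.27 and 8.35 under EE (log2 difference 0.21, SE 0.099, 95% interval −0.02 to 0.45, adjusted p = 0.658 by limma). Next were Pc, with 9.42 and 9.51 under ISO and 9.79 and 9.60 under EE (0.23, SE 0.14), and osa, with 9.84 and 9.79 under ISO and 10.22 and 9.91 under EE (0.25, SE 0.15). In each of these 3 genes both EE arrays lay above both ISO arrays, which their choice by the smallest p favours. The share of all probe sets that did so was not counted. The osa difference fell to 0.09 without dTip60E431Q EE replicate 1 and was 0.40 without replicate 2. In control flies the same genes had differences of −0.04, 0.03 and −0.14. The interaction was 0.26 for Trl (SE 0.14, adjusted p = 0.596), 0.39 for osa (SE 0.21, adjusted p = 0.592) and 0.36 for Su(z)12 (SE 0.18, adjusted p = 0.564), so a different response of the genotypes was not detectable for them. Over both genotypes the differences by housing lay between −0.17 (Bap170) and 0.13 (Pc).

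By complex, PRC2 comprised E(z), the H3K27 methyltransferase, its partners esc, Su(z)12 and Caf1-p55, and the accessory subunit Pcl. All 5 had values below 0 for EE minus ISO in control (median −0.15, from −0.19 for Su(z)12 to −0.03 for E(z)) and below 0 for dTip60E431Q minus control under ISO (median −0.13). Both sets of values come from the same control ISO arrays, and of all 34 genes 21 and 26 had values below 0 in these comparisons. In dTip60E431Q flies 4 of 5 were above 0 for EE minus ISO (median 0.07), with Caf1-p55 at −0.15. E(z) itself kept within a narrow range, with 7.84 and 7.88 in control ISO, 7.82 and 7.85 in control EE, 7.71 and 7.75 in dTip60E431Q ISO, and 7.86 and 7.75 in dTip60E431Q EE. Its difference under ISO was −0.13, and none of the 5 passed the test.

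PRC1 was represented by Pc, whose chromodomain binds methylated H3K27, by Psc, by Sce, the RING subunit that ubiquitylates H2A, and by Scm. All 4 had values above 0 for EE minus ISO in control, with a median of 0.04 and a highest value of 0.17 for Sce (adjusted p = 0.921 by limma). Of all 34 genes, 13 had values above 0 there. In the other comparisons the signs of the PRC1 genes were mixed. Psc was at 6.61 and 6.49 in dTip60E431Q ISO and at 6.53 and 6.18 in control ISO, which overlapped. The DNA-binding Polycomb protein phol, its partner Sfmbt, and Asx, a subunit of the H2A deubiquitylase PR-DUB, had differences between −0.07 and 0.10 in each of the 4 comparisons of groups of 2 arrays.

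For genotype over both housings, 23 of the 34 genes had values below 0. Of the 7 measured BAP and PBAP genes, 6 did, from −0.25 for brm to −0.00412 for Bap170, with polybromo at 0.07. Apart from brm, only Bap60 in this complex was below −0.1, at −0.11 (SE 0.083, adjusted p = 0.771 by limma). Core subunits mor and Snr1 stood at −0.04 and −0.08. osa, which defines BAP, stood at −0.03 over both housings, made of −0.23 under ISO and 0.16 under EE. Bap170 and polybromo, which define PBAP, gave 0.01 and 0.13 under ISO. For each of the 6 partners of brm the interval for genotype over both housings included 0.

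Among the remaining ATPases, kis (a CHD protein of the trithorax group), Chd1 and Mi-2 had differences between −0.15 and 0.08 in the 4 comparisons of groups of 2 arrays. E(bx), the largest NURF subunit, gave −0.07 to −0.01. Ino80 stood at 5.55 and 5.66 in control ISO, 5.45 and 5.38 in control EE, 5.52 and 5.65 in dTip60E431Q ISO, and 5.37 and 5.56 in dTip60E431Q EE. Its housing difference over both genotypes, −0.16 (SE 0.083, adjusted p = 1.00 by limma), had the smallest p of the 34 genes in that comparison, and its signal was below the median of all probe sets (6.46). The gene for HP1a, the reader of H3K9 methylation, ranged only from 10.25 to 10.44. The enzymes Set2 (H3K36 methyltransferase) and Utx (H3K27 demethylase) gave −0.06 and −0.05 for genotype over both housings.

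Many of the chromatin genes moved together between arrays of the same group. In control ISO, 28 of 34 genes were higher in replicate 1 than in replicate 2, by a median of 0.16, and in dTip60E431Q EE 30 of 34 were higher in replicate 1, by a median of 0.13. In control EE it was 20 of 34 and in dTip60E431Q ISO 19 of 34, with medians of 0.00531 and 0.04. Control ISO replicate 1 held the highest value of 15 of the 34 genes and dTip60E431Q EE replicate 1 that of 9, while dTip60E431Q EE replicate 2 held the lowest of 12. osa is an example, with 10.19 and 10.22 in those replicates 1 and 9.79 to 9.91 in the other 6 arrays. Utx (9.14 in control ISO replicate 1, 8.67 in dTip60E431Q EE replicate 2) and E(bx) (10.05 and 9.62) followed the same order.

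All probe sets leaned the same way. After each gene was centred on its mean over the 8 arrays, the median of the 34 genes was 0.11 in control ISO replicate 1 and 0.07 in dTip60E431Q EE replicate 1, and that of all probe sets 0.05 and 0.05. In dTip60E431Q EE replicate 2 the medians were −0.06 and −0.04, and in control ISO replicate 2 both were −0.04. The pan-neuronal sum was also highest in those replicates 1, at 14.63 in both. In each of these groups replicate 1 was instead the lower of the pair for the fat body sum (14.32 against 14.45 in control ISO, 14.25 against 14.64 in dTip60E431Q EE), the photoreceptor sum (13.3 against 14.16, 14.18 against 14.29) and the muscle sum (13.23 against 13.48, 12.91 against 13.86). The hemocyte sum was lower there too (12.23 against 12.39, 12.31 against 12.51). Other sums did not share this order. The midgut sum was lower in replicate 1 of control ISO (7.92 against 10.31) but higher in that of dTip60E431Q EE (10.58 against 8.25). The glial sum also differed in direction (14.56 against 14.49, 14.51 against 14.56). The germ line and dividing cell sum was higher in both replicates 1 (8.87 against 8.68, 9.44 against 9.39). The 3′ minus 5′ signal of the GAPDH control probe sets is a sign of RNA integrity and labelling. It was 2.60 against 2.43 in control ISO and 2.46 against 2.21 in dTip60E431Q EE (replicate 1 against 2). Over the 8 arrays it ranged from 2.21 to 2.65. For the actin control it was 0.827 against 1.22 in control ISO and 1.02 against 1.08 in dTip60E431Q EE (replicate 1 against 2), and for eIF-4a 3.28 against 3.24 and 3.37 against 3.06. Their part in the difference between replicates was not tested. The medians between replicates of these groups (0.16 and 0.13) were larger than the median between any groups compared. The former compare single arrays and the latter means of at least 2 arrays, which averaging alone makes smaller, so their sizes are not directly comparable.

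**Figure D4:**
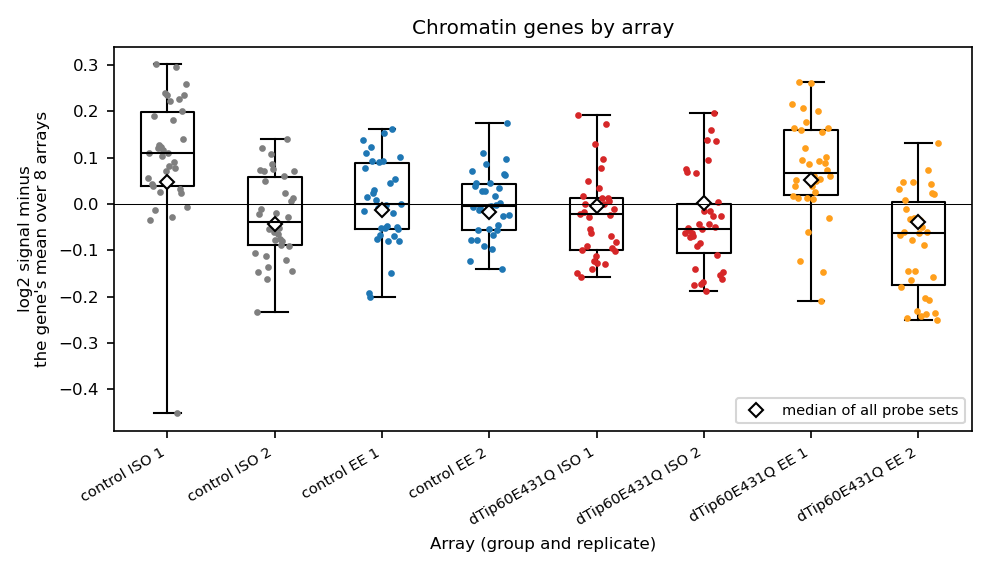
Log2 signal of the 34 chromatin genes in each array after subtraction of each gene's mean over the 8 arrays (points, coloured by group); boxes show median and quartiles, whiskers the whole range, and diamonds the median of all probe sets. The medians of control ISO replicate 1 (0.11) and dTip60E431Q EE replicate 1 (0.07) lie above 0 and those of the second replicates of the same groups below.

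Across all 8 arrays the chromatin genes held a narrow band. The difference between the highest and lowest array had a median of 0.36 on the log2 scale, from 0.16 for polybromo to 0.65 for Nurf-38, and exceeded 1 in 0 of 34 genes. Over all probe sets the median was 0.47 and 11.6% exceeded 1, and over the 9385 probe sets with a mean at or above the median the values were 0.41 and 11.4%. The residual SD within groups also had a lower median, 0.12, than all probe sets (0.15) or the brighter ones (0.13). These are descriptions with no test. Of the 34 genes, 32 had a mean signal above the median of all probe sets, Psc and Ino80 being the exceptions, and no gene was left out of the tests for low signal.

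**Figure D5:**
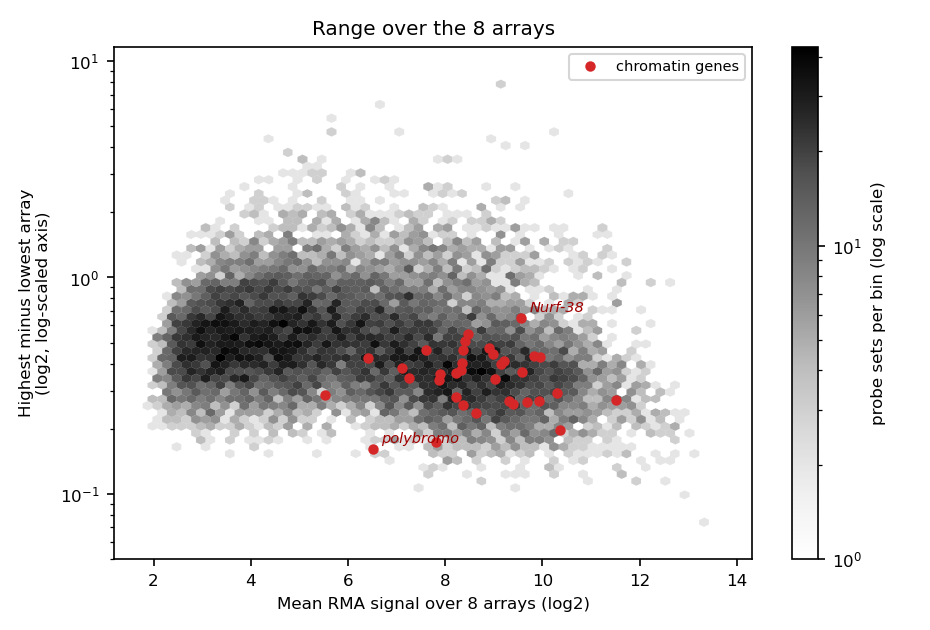
Difference between the highest and lowest of the 8 arrays (log2, on a log-scaled axis) against mean log2 signal, for all 18769 probe sets (grey, shaded by number per bin) and for the 34 chromatin genes (red). The chromatin genes lie between 0.16 (polybromo) and 0.65 (Nurf-38).

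Genes of the same pathways outside the list of 43 were counted in the same way. Of 75 further names of Polycomb, trithorax, remodeler and heterochromatin genes, 52 were measured, and 0 of 52 were called in any of the 7 comparisons by limma, or at an unadjusted p below 0.05 with a fold of at least 1.3. With no requirement on the fold, 2 of 52 passed for genotype under EE, where 3.59% of all probe sets passed as lower. Both are subunits of H3K4 methyltransferase complexes, and they were chosen for naming after their values were seen. Rbbp5 was at 7.12 and 7.22 in control EE and at 6.83 and 6.81 in dTip60E431Q EE, with 6.98 to 7.02 in the 4 ISO arrays (difference under EE −0.35, SE 0.097, unadjusted p = 0.00869, adjusted p = 0.435). wds was at 7.41 and 7.50 in control EE and at 7.25 and 7.07 in dTip60E431Q EE (−0.29, SE 0.12, unadjusted p = 0.0402, adjusted p = 0.654). Rbbp5 also passed at an unadjusted p below 0.05 over both housings (−0.18, adjusted p = 0.453, where 4.13% of all probe sets passed as lower) and for the interaction (−0.33, unadjusted p = 0.0452, adjusted p = 0.461, where 5.35% did). ash2, their partner in these complexes, showed −0.02 under EE.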

How the data were processed

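The authors hybridised labelled cRNA from sorted cells to Affymetrix Drosophila Genome 2.0 arrays and deposited RMA values (background correction, quantile normalisation and probe set summary in R) on the log2 scale, from 1.6 to 14.5. The RMA version was not given in the sources used here. Quantile normalisation brings the arrays towards one distribution, so shifts common to all genes are largely removed. The median signal of the deposited values still ran from 6.415 in dTip60E431Q EE replicate 2 to 6.496 in control EE replicate 2. Values were used as deposited, without 183 control probe sets, and arrays were grouped by their labels.

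Tests used limma 3.58.1 in R 4.3.3: group means, 1 pooled spread over the 8 arrays (4 residual and 2.91 prior degrees of freedom) and Benjamini-Hochberg adjustment over 18769 probe sets, for 7 comparisons. The procedure was tested on simulated data. Symbols came from the array annotation, and the probe set with the highest mean stood for a gene. Genes named were, per comparison, those called, filled to 6 by the smallest unadjusted p, up to 4 per complex, and genes whose probe sets disagree. The gene list, complexes and marker lists were chosen with earlier results of these data known. Intervals are at 95%. Precision is limited by the 2 arrays per group. Alternatives were cyclic loess, repeated quantile normalisation, only the arrays compared, robust moderation with a mean-variance trend, weighting of arrays, a replicate block, low-signal probe sets left out, 1 probe set or the mean of probe sets per gene, the dTip60E431Q ISO arrays averaged, a fold of 1.1, the methods' t-test, and each array left out. HP1a and Caf1-p55 are synonyms, from the RefSeq gene table, of the symbols in the annotation. Sequences and genome positions were not used here.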

Additional observations from a re-analysis of the deposited data

How the results depend on the processing

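The count of chromatin genes past the adjusted threshold was 0 under all 137 combinations of comparison and alternative, and of 820 recomputed differences of named genes 0 reversed and 0 passed. The named genes were picked by the smallest p in these same arrays. A kept sign was therefore nearly fixed in advance and does not show that the differences are robust. At an unadjusted p below 0.05 with a fold of 1.3, the count of 0 became 1 for genotype under ISO and 1 for the interaction with array weights and with the mean-variance trend (Nurf-38 each time, beside 9.87 to 10.2% of all probe sets), and 1 for the interaction with repeated quantile normalisation (Su(z)12, beside 10.4%). With a fold of 1.1 it was 1 under ISO (brm, beside 13% of all probe sets) and 3 over both housings (brm, Kdm4A and Caf1-p55, beside 9.7%). With each array left out in turn it ranged from 0 to 2 for housing in control (3.66 to 15.2% of all probe sets), 0 to 1 for housing in dTip60E431Q (3.9 to 8.17%), 0 to 3 for genotype under ISO (6.57 to 20%), 0 to 1 for genotype under EE (4.36 to 7.94%) and 0 to 3 for the interaction (6.76 to 18.9%). Counts of 3 came without control ISO replicate 2 (brm, Nurf-38 and Kdm4A under ISO; osa, Iswi and Nurf-38 for the interaction) and without dTip60E431Q EE replicate 2 (osa, Su(z)12 and Nurf-38 for the interaction). The median log2 difference of the 34 genes then ranged from −0.119 to 0.0452 for housing in control, −0.00831 to 0.133 for housing in dTip60E431Q, −0.167 to −0.00881 for genotype under ISO, −0.0804 to 0.0807 for genotype under EE, −0.0283 to 0.148 for the interaction, −0.0776 to 0.0113 for genotype over both housings and −0.0397 to 0.0554 for housing over both genotypes. The cause was not tested. When 1 array of a group was left out, the lone array was assumed to vary like the other groups.

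The genes brm, Kdm4A and Caf1-p55 passed over both housings at an unadjusted p and any fold, where 9.7% of all probe sets passed and 4.13% passed as lower. Kdm4A and Caf1-p55 no longer passed without control ISO replicate 1, dTip60E431Q ISO replicate 2 or dTip60E431Q EE replicate 2. The same held with the dTip60E431Q ISO arrays averaged. The shares of all probe sets under these alternatives are not given here. Over 19 alternatives the difference lay between −0.289 and −0.213 for brm, −0.335 and −0.212 for Kdm4A, and −0.277 and −0.161 for Caf1-p55. In each comparison the methods' t-test called 0 of the 34 chromatin genes after adjustment, beside 0 to 0.0852% of all probe sets. At an unadjusted p below 0.05 with a fold of 1.3 it also called 0 of 34, beside 0.218 to 6.49% of all probe sets. Over the alternatives the adjusted p of brm lay between 0.158 and 0.895. Deviations of same-numbered arrays correlated at 0.312 (control ISO with control EE) and 0.263 (control ISO with dTip60E431Q EE), but between −0.0862 and −0.00537 for the other 4 pairs of groups, so the numbers were not taken to pair the samples. The replicate block gave 0 calls among the chromatin genes in each comparison, beside 0.048 to 0.805% of all probe sets. It gave the same medians (−0.0432 for housing in control, −0.08 for genotype under ISO) and, for brm over both housings, an adjusted p of 0.313 by limma.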
